A study of Mus musculus with 5 samples.

Results

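The extracellular matrix is the protein network that cells secrete and attach to, and 45 genes for its parts, its receptors and its proteases are described here in 5 lines of the mouse neuroblastoma line Neuro2A. The genes were taken from a list made by function, with earlier results of these data known. Each was represented by every probe set of the array whose annotation gives that gene as its only symbol. That found 44 of the 45 genes, with 121 of the 45037 probe sets that are not array controls. The probe sets of Loxl2 carry several symbols, so Loxl2 has no value here. By role the 44 genes are 13 of the basement membrane, 9 fibrillar and other interstitial collagens, 6 glycoproteins and proteoglycans, 2 cross-linking oxidases, 5 proteases and inhibitors, and 9 integrins.

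The study asked what the histone demethylase KDM7 does to gene expression. It set 2 stable knockdown lines, made with KDM7 vector 1 and KDM7 vector 2 and called KDM7 KD1 and KDM7 KD2, beside 3 control lines. The controls were untransfected parental Neuro2A, Neuro2A with an empty vector, and Neuro2A with a knockdown vector against EGFP. All share the Neuro2A background and standard culture, the 4 lines other than the parental one carry a vector, and each line was measured on 1 array. The labels do not say whether a line is a single clone or a pool, or whether all were cultured in parallel, and the p-values here therefore measure only how these 5 arrays scatter.

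Basement membranes are thin sheets built on a network of type IV collagen and a network of laminin, a trimer of an alpha, a beta and a gamma chain, joined by nidogens and the proteoglycan perlecan. Fibrillar collagens instead form the cables of connective tissue, made mainly by fibroblasts. Integrins are paired alpha and beta chains that span the cell membrane and hold cells to laminin, collagen or fibronectin, while metalloproteinases cut matrix proteins and their tissue inhibitors, the TIMPs, block them. Neuroblastoma cells derive from the sympathetic branch of the neural crest, a lineage that migrates through matrix during development.

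The signal of each probe set is a MAS5 intensity on a linear scale, 1 number per array, and a difference is given as log2, so that 1 is a doubling. Probe sets whose mean log2 signal lay at or above the array's median, a signal of 40.5, were kept for tests. A gene is represented by its brightest probe set unless another is named, and levels are compared between lines, not between genes. Kdm7a, the targeted gene, read 648 to 872 in the 3 control lines and 231 and 143 in KDM7 KD1 and KDM7 KD2 on its brightest probe set, lower in both knockdown lines. Its adjusted p for knockdown in limma was 0.128 there, and 0.0468 and 0.869 on its other kept probe sets. The test thus did not call the targeted gene on its brightest probe set, so a member that did not pass is not shown to be unchanged. Of 15 neuroblastoma and sympathoadrenal markers with a probe set 12 were kept, with summed signals of 59976 to 68142 per line, and Th, Nefm and Nefl were not. Of their 21 kept probe sets, 6 (28.6%) had an unadjusted p under 0.05 in limma for knockdown and 7 (33.3%) for the parental line, against 4.96% and 16.6% of all kept probe sets, and 1 was called lower in the parental line. The part of these markers in the results below was not tested. Of 12 fibroblast and mesenchymal markers 3 were kept (Vim, Acta2 and Pdgfra), with summed signals of 29787 in the parental line and 21850 to 27008 in the others. Of 5 Schwann and glial markers Erbb3 alone was kept, with summed signals of 172.8 in the parental line and 342.1 to 496.6 in the others, and none of 5 blood or 5 endothelial markers was. In such bulk RNA, fewer cells of a type and less RNA per cell cannot be told apart.

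Start regions are shown first for the genes the results turn on. Col4a1 and Col4a2 encode the most widespread type IV collagen chains and lie head to head, so both are read from 1 shared start region. In RefSeq on GRCm38.p6 the start of Col4a2, on the plus strand, is at position 11312805 of chromosome 8 and that of Col4a1, on the minus strand, at 11312826, which is 21 bases away. Col4a2 runs to higher positions and Col4a1 to lower ones, so the stretch between the starts lies inside both genes and is not a gap. The 30 bases at chr8:11312801-11312830 are printed on the plus strand, with capitals from one start to the other.
Col4a1 and Col4a2: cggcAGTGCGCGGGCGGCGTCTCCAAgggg
The 250 bases before the start are given for Lama5 (chr2:180225860-180226109, minus strand), Hspg2 (chr4:137468553-137468802, plus strand) and Timp2 (chr11:118355412-118355661, minus strand), whose levels set the parental line apart below. They are printed 5′ to 3′ on the gene's own strand, and capitals mark matches on either strand to the GC box GGGCGG, which Sp1 binds, the CCAAT box, the TATA box TATAAA or the E-box CACGTG.
Lama5: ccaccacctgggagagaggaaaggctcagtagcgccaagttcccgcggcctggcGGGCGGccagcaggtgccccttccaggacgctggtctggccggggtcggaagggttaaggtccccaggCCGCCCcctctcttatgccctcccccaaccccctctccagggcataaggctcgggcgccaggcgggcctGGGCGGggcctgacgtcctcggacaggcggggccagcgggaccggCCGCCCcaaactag
Hspg2: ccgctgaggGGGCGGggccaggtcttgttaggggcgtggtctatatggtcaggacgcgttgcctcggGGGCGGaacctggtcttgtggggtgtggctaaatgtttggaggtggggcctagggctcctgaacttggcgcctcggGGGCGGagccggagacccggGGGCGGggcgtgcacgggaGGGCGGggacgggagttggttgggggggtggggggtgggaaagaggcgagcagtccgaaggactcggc
Timp2: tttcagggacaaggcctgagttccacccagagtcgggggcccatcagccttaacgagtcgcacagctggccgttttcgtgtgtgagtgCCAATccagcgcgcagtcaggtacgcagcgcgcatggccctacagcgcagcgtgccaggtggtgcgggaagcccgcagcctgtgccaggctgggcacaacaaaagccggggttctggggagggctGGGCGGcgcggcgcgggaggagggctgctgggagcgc
The Lama5 and Hspg2 windows hold 4 and 5 GC boxes, and the Timp2 window holds 1 GC box and 1 CCAAT box. RefSeq windows were found for 30 of the 45 genes, 34 windows in all. A gene with more than 1 window is counted once per window. The Tnc windows overlap, so their shared GC box and TATAAA count in each. A GC box was in 26 of the 34 (76.5%) and in 32.7% of 32851 windows of all genes, a CCAAT box in 38.2% and 33.8%, TATAAA in 8.8% and 12.4%, and CACGTG in 0 and 6.0%. The member windows were also richer in G and C, with a median of 62.2% over the 250 bases before the start against 52.4%. A match is only a run of letters, not a measured site.

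Which of these genes were above the filter level in Neuro2A was asked first. Of the 20 genes kept, 7 were integrins, 6 were basement membrane genes and 2 were fibrillar or interstitial collagens. By role, 6 of 13 basement membrane genes were kept, 2 of 9 fibrillar and interstitial collagens, 3 of 6 glycoproteins and proteoglycans, 0 of 2 oxidases, 2 of 5 proteases and inhibitors, and 7 of 9 integrins. The 20 of 44 are 45.5%, and 59.7% of all 18193 genes passed in the same way. Of the 24 genes not kept, 16 were under the filter level in all 5 lines, and of the 20 kept, 16 were over it in all 5.

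**Figure D1:**
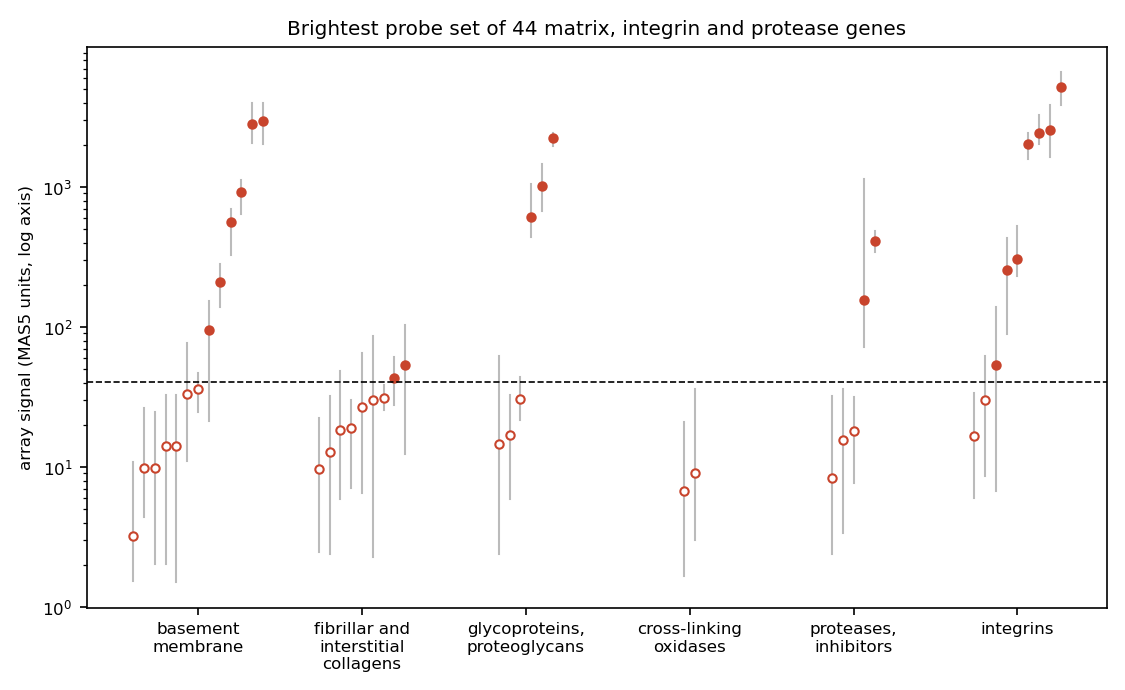
Signal of the brightest probe set of each of the 44 genes, as the geometric mean of the 5 lines with the lowest and highest line as bars, on a log axis and grouped by role; filled points passed the filter, and the dashed line is its level of 40.5. In the oxidases no gene reaches the level, and among the integrins 7 of 9 do.

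The basement membrane genes kept were Col4a1, Col4a2, Lama4, Lama5, Lamc1 and Hspg2, which encodes perlecan. The laminin beta chains Lamb1 and Lamb2, the alpha chain Lama1, the nidogens Nid1 and Nid2, Col18a1 and Col4a5 were not kept. Col4a5, with a mean signal of 36.2, was the gene closest below the level. Of the laminin genes on the list, those kept thus cover alpha and gamma chains but no beta chain, and these arrays give no reliable level for a beta partner.

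Among fibrillar and interstitial collagens, Col1a2 (mean 42.9) and Col5a1 (53.6) were just inside the level. Col6a1 (31.0), Col6a2 (29.9), Col12a1 (26.7), Col3a1 (19.2), Col5a2 (18.3), Col11a1 (12.9) and Col1a1 (9.68) were below it. Type I collagen is made of chains from Col1a1 and Col1a2. The oxidases Lox (6.78) and Loxl1 (9.13), which cross-link collagen and elastin, were also below it. So were the glycoproteins Thbs1 (30.6) and Tnc (16.9), the proteoglycan Bgn (14.5), the inhibitor Timp3 (17.99), and the proteases Mmp14 (15.6) and Mmp2 (8.41). The integrin chains Itga5 (30.3), which pairs with beta 1 to bind fibronectin, and Itga4 (16.6) completed the 24. At such signals differences between lines are not tested here.

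The lines were then compared, with KDM7 knockdown against control as the main question. No member passed the test. On the brightest probe sets, both knockdown lines read above every control for Col4a1, Hspg2, Itga6 and Itgav and below every control for Fn1, with differences of 1.19-fold to 1.54-fold between the group means of log2 signals. For Hspg2 the difference rested largely on the parental line, and a second Fn1 probe set went the other way. Over probe sets, both knockdown lines lay above all controls in 18.9% of the 37 and below in 5.4%, where 12.6% and 10.2% of all kept probe sets lay so. Of the 37 member probe sets kept, 0 were past an adjusted p of 0.05 in limma, where 0.00888% of all 22519 kept probe sets were. At an unadjusted p under 0.05 there were 5 of 37, or 13.5%, against 4.96% of all. The 5 were both probe sets of Col4a1, both of Itga6 and the second of Hspg2, and probe sets of the same gene are not independent. Without the trend and robust options limma called 0 members and 0 of all probe sets. The adjusted p of each member probe set was 0.916 or more in limma.

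Col4a1 read 2137 in the parental line, 3010 with empty vector and 2075 in the EGFP knockdown, then 3988 in KDM7 KD1 and 3366 in KDM7 KD2. Both knockdown lines lay above every control. The means were 2407 ± 523 (SD, n = 3) and 3677 ± 440 (SD, n = 2), a log2 difference of 0.63 ± 0.18 (SE), with an adjusted p of 0.916 in limma. Its second probe set also placed both knockdown lines above, at 587 and 402 against 292 to 353 (0.62 ± 0.22, SE). Col4a2, the partner chain, read 2014 in parental cells, 3880 with empty vector, 2094 in the EGFP knockdown, and 3988 and 3591 in KDM7 KD1 and KDM7 KD2. Here the empty vector line lay between the knockdown lines, so the groups overlapped, with means of 2662 ± 1055 (SD, n = 3) and 3790 ± 281 (SD, n = 2) and a log2 difference of 0.58 ± 0.27 (SE). In both genes of the pair the parental and EGFP lines were the low ones.

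Hspg2, the perlecan core protein, read 325, 640 and 595 in the controls, in the same order of lines, and 699 and 661 in the knockdown lines. Both knockdown lines were above every control, but the parental line alone was far below the rest. The means were 520 ± 171 (SD, n = 3) and 680 ± 27.3 (SD, n = 2), and the log2 difference of 0.45 ± 0.29 (SE) was 0.14 without the parental line. A second Hspg2 probe set read 139, 204 and 124 against 377 and 193 (0.83 ± 0.34, SE), with KDM7 KD2 inside the control range.

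The laminin chains differed less between the groups than within them. Lama4, an alpha chain of vessel and nerve basement membranes, read 254, 234 and 140 in the controls and 280 and 171 in the knockdown lines (log2 difference 0.11 ± 0.33, SE). Lamc1, the most common gamma chain, read 638, 1118 and 951 against 1020 and 927 (0.15 ± 0.24, SE). Lama5, a widespread alpha chain, read 21.5, 154 and 151 against 115 and 134, and the log2 difference of 0.65 ± 0.87 (SE) was -0.30 without the parental line. All 6 basement membrane genes had a positive difference, with a median of 0.51, where the median over the brightest kept probe set of all 10867 genes was 0.03. Without the parental line the sign of Lama5 and Lamc1 turned, and Lama4 turned without the EGFP line, without KDM7 KD1, and in the mean over its probe sets.

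**Figure D2:**
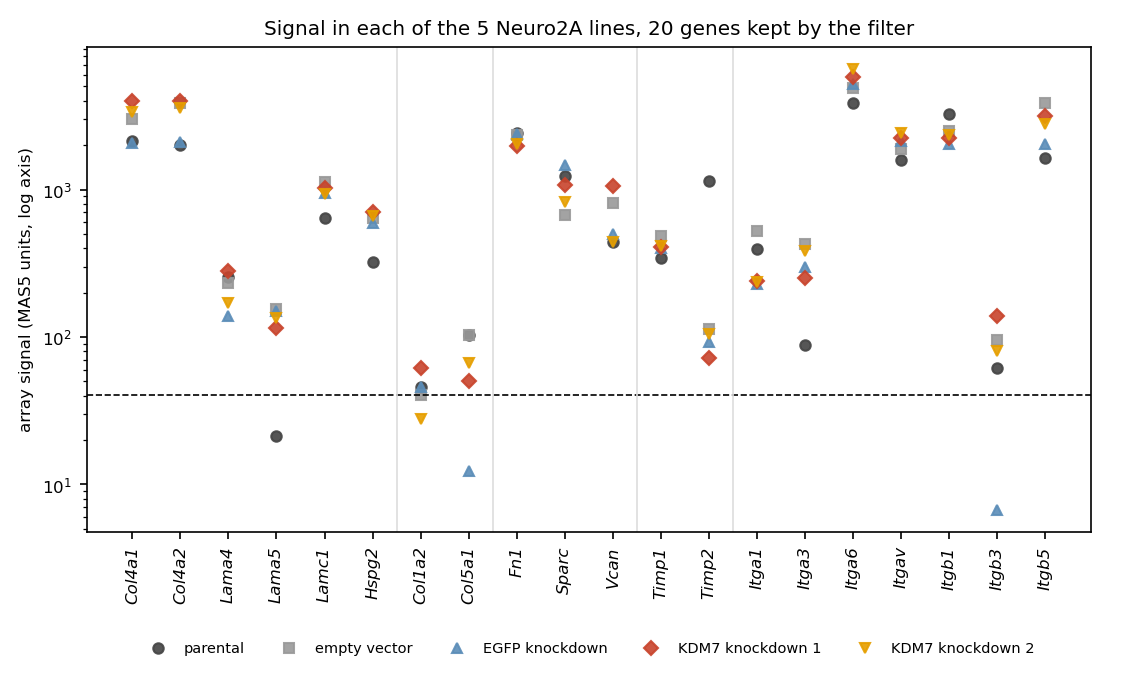
Signal in each of the 5 lines, 1 array each, for the 20 kept genes, on a log axis, with the filter level of 40.5 as a dashed line. Col4a1, Hspg2 and Itga6 have both knockdown lines above all controls, and Timp2 and Lama5 have the parental line apart from the other 4.

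Of the interstitial collagens, Col1a2 read 46.0, 40.3 and 45.9 in the controls, 61.3 in KDM7 KD1 and 27.9 in KDM7 KD2. One knockdown line was above and the other below every control, and the group difference was -0.09 ± 0.45 (SE). Col5a1, a minor chain that sets the width of collagen fibrils, read 103 and 103 in the parental and empty vector lines, 12.4 in the EGFP line, and 50.5 and 66.4 in the knockdown lines (0.19 ± 0.91, SE). On this probe set the EGFP line alone was low, under the filter level. On the dimmer Col5a1 probe sets, not kept, the empty vector line was lowest instead (5.51 and 3.48, against 17.1 and 12.5 in the EGFP line).

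Among the glycoproteins, Fn1 encodes fibronectin, the adhesive protein of loose matrix. It read 2431, 2356 and 2367 in the controls and 1971 and 2044 in the knockdown lines, both below every control. The means were 2385 ± 40.3 (SD, n = 3) and 2008 ± 51.8 (SD, n = 2), a log2 difference of -0.25 ± 0.12 (SE) with an adjusted p of 0.916 in limma. A second, dimmer Fn1 probe set went the other way, at 70.5, 83.7 and 112 against 101 and 116 (0.31 on the log2 scale). Sparc, a collagen-binding protein, read 1241, 671 and 1457 against 1065 and 826 (-0.19 ± 0.32, SE), and the groups overlapped.

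Vcan, the large proteoglycan versican, read 437, 807 and 497 in the controls, 1056 in KDM7 KD1 and 442 in KDM7 KD2. The knockdown lines differed from each other, and KDM7 KD1 alone was above all controls. KDM7 KD2 minus KDM7 KD1 was -1.26 on the log2 scale, and -1.68 and -0.72 on 2 further probe sets. The group difference was 0.29 ± 0.40 (SE). Over the 37 member probe sets 0 passed for KDM7 KD2 against KDM7 KD1 in limma, where 0.00444% of all did, 2 had an unadjusted p under 0.05 (1.51% of all), and limma without trend and robust called 0. Those 2 were Vcan probe sets.

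The 2 kept inhibitors showed no knockdown pattern. Timp1 read 341, 487 and 403 in the controls and 410 and 414 in the knockdown lines, within the control range (0.02 on the log2 scale). Timp2 is described with the parental line, since the 72.0 and 105 of the knockdown lines lay close to the 113 and 92.1 of the empty vector and EGFP lines.

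Integrins bind the matrix by pairs. Itga6, which with beta 1 or beta 4 binds laminin, read 3841, 4875 and 5204 in the controls and 5791 and 6564 in the knockdown lines. Both knockdown lines were above every control, with means of 4640 ± 711 (SD, n = 3) and 6178 ± 546 (SD, n = 2) and a log2 difference of 0.42 ± 0.15 (SE, adjusted p = 0.916 in limma). A second Itga6 probe set gave 2340, 2779 and 3165 against 3600 and 4054, in the same order of lines (0.48 ± 0.15, SE). Itgav, the alpha chain of receptors for vitronectin and fibronectin, read 1593, 1872 and 2117 against 2251 and 2411, again above every control. Its means were 1861 ± 262 (SD, n = 3) and 2331 ± 113 (SD, n = 2), 0.33 ± 0.15 (SE) apart on the log2 scale, and 2 further probe sets gave 0.31 and -0.09.

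Itgb1, the shared beta chain of most matrix receptors, read 3247, 2505 and 2023 in the controls and 2225 and 2340 in the knockdown lines (-0.16 ± 0.19, SE). Its probe sets disagreed, with both knockdown lines below every control on one further probe set (2386, 1799 and 1687 against 1634 and 1530) and above on another (152, 168 and 126 against 190 and 196). Itgb5, a beta chain that pairs with alpha V, read 1631, 3837 and 2047 against 3144 and 2786, with the empty vector line highest (0.34 ± 0.34, SE). Itgb3, which also pairs with alpha V, read 61.3 and 95.1 in the parental and empty vector lines, 6.74 in the EGFP line and 138 and 80.7 in the knockdown lines. The EGFP line alone was low, under the filter level, and the log2 difference of 1.64 ± 1.11 (SE) was 0.47 without it. It was 0.84 when 32 was added to all signals. A dimmer Itgb3 probe set, not kept, read 58.8, 4.81 and 5.79 against 7.10 and 17.6, where the parental line stood apart and the EGFP line did not. Itga1, a collagen receptor chain, read 395, 525 and 230 against 240 and 236 (-0.61 ± 0.32, SE), and the EGFP line read like the knockdown lines. On a second, dimmer Itga1 probe set the values were 79.2, 166 and 48.1 against 75.9 and 83.7 (-0.11). There the knockdown lines read like the parental line and the EGFP line was lowest. Itga3, a laminin receptor chain, read 88.6, 429 and 296 against 252 and 386 (0.48 ± 0.66, SE), which became -0.19 without the parental line.

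Counted over genes, both knockdown lines lay above all 3 controls in 4 of the 20 (Col4a1, Hspg2, Itga6 and Itgav) and below in 1 (Fn1). The same share over all genes was not computed. Over the 37 probe sets the counts were 7 above (18.9%) and 2 below (5.4%), where 12.6% and 10.2% of all kept probe sets lay so. Differences were positive in 14 genes and negative in 6, with a median of 0.24, where the median of all genes was 0.03.

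**Figure D3:**
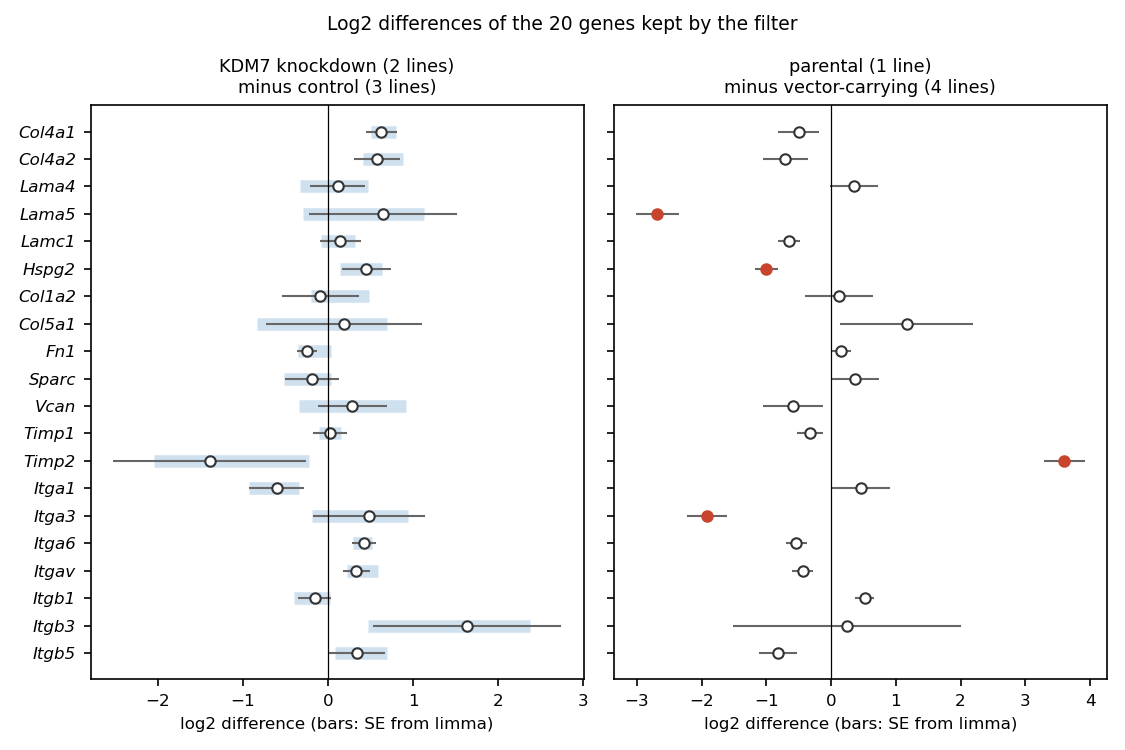
Log2 difference of each of the 20 kept genes with its standard error, for KDM7 knockdown (n = 2) minus control (n = 3) and for the parental line (n = 1) minus the vector-carrying lines (n = 4); pale bands span the knockdown difference over all alternative settings, and filled points passed the test. No knockdown difference passed the adjusted test, and Timp2, Lama5, Hspg2 and Itga3 passed it for the parental line.

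The parental line stood apart more than the knockdown lines did. Against the 4 vector-carrying lines, Timp2 was higher in it and Lama5, Itga3 and Hspg2 were lower, and these 4 passed the test. They are 4 of 37 probe sets (10.8%), where 1.52% of all kept probe sets were called in limma. Without trend and robust 2 members passed, Lama5 and Timp2, where 0.124% of all did. At an unadjusted p under 0.05 there were 14 of 37 (37.8%) against 16.6% of all. Among the 14, Lama5, Itga6, Itgb1 and Itgb5 each gave more than 1 probe set, and probe sets of the same gene are not independent. The members were chosen with earlier results of these data known, so these shares describe them and are not a test of the set. The parental line is 1 array, which is assumed to vary like the others, and the vector and all else that separates it from the 4 lines cannot be told apart.

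Timp2 inhibits metalloproteinases and, in complex with Mmp14, also helps activate Mmp2. Its parental signal was 1146, and it read 113 with empty vector, 92.1 in the EGFP knockdown, 72.0 in KDM7 KD1 and 105 in KDM7 KD2, a mean of 95.5 ± 17.9 (SD, n = 4). The parental signal was 12.2-fold higher, a log2 difference of 3.60 ± 0.31 (SE) with an adjusted p of 0.00725 in limma. The parental line was highest in 5 of the 6 Timp2 probe sets. Among the 5 that were not kept, it read 279 against 3.71 to 34.2 on one and 215 against 7.96 to 51.5 on another. Because of the parental line, knockdown minus control for Timp2 was -1.39 ± 1.14 (SE), and -0.23 without that line. The smooth muscle actin Acta2, on the mesenchymal marker list, read 2733 in parental cells and 39.3 to 105 in the vector-carrying lines (adjusted p = 0.0113 in limma). Its part in the Timp2 result was not tested, and among the other mesenchymal markers Vim read 26864 against 21576 to 26677 and Pdgfra 73.5 against 51.5 to 115.

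Lama5 read 21.5 in the parental line, below the filter level, and 115 to 154 in the 4 others, so that the groups did not overlap. The log2 difference was -2.68 ± 0.33 (SE) with an adjusted p of 0.0144 in limma. Its size rests on that dim parental signal and was -1.67 when 32 was added to all signals. A second Lama5 probe set read 48.5 against 71.8 to 104 (-0.88, adjusted p = 0.260 in limma). Itga3, which pairs with beta 1 to bind laminins that contain the Lama5 chain, has dimmer probe sets that were not kept. In the parental line they read 24.8 against 28.3 to 57.8, and 9.71, inside the 8.56 to 15.1 of the others. On its brightest probe set Itga3 read 88.6 against 252 to 429. It was 3.76-fold lower, -1.91 ± 0.31 (SE) on the log2 scale, with an adjusted p of 0.0331 in limma. Hspg2 read 325 against 595 to 699, 2.00-fold lower at -0.997 ± 0.18 (SE), with an adjusted p of 0.0419 in limma. Its second probe set read 139 in the parental line, inside the 124 to 377 of the others, and did not pass (-0.57, adjusted p = 0.633 in limma).

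Calls other than Timp2 and Lama5 depended on which line was left out. Without the empty vector line the adjusted p in limma was 0.0533 for Itga3 and 0.0657 for Hspg2, and without KDM7 KD2 0.0511 and 0.0823. Without KDM7 KD1 Hspg2 alone was lost, at 0.109. With each gene's probe sets averaged, 0 members passed, where Timp2 and Lama5 were no longer tested and Itga3 (0.302) and Hspg2 (0.299) were. Hspg2 also did not pass with median centring (0.0688) or with no filter (0.0597), where a dim Col6a2 probe set passed instead (-4.65). Without the EGFP line 10 member probe sets passed, adding Col4a2 (-0.92), 4 probe sets of Itgb5 (-0.83 to -1.06) and a second of Timp2. Calls rose over the whole array there, to 705 of all 22519 probe sets from 342 in the main setting.

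The parental line gave the lowest signal in 10 of the 20 genes and the highest in 3 (Fn1, Timp2 and Itgb1). Over probe sets it was below the other 4 in 18 of 37 (48.6%), where 31.5% of all were, and above in 4 (10.8%), where 23.0% were. The median parental difference was -0.38 over the 20 genes and -0.04 over all genes, and median centring moves both by 0.19. In Lamc1 it read 638 against 927 to 1118 (-0.65, adjusted p = 0.108 in limma) and in Itgb5 it was lowest on all 4 probe sets (-0.68 to -0.90). Itgb1 was the other way, at 3247 against 2023 to 2505 (0.52, adjusted p = 0.128 in limma).

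The members varied widely over the lines. In 12 of the 20 genes (60.0%) the highest line was at least 2-fold above the lowest, where 17.0% of all genes and 21.2% of all kept probe sets were. These were Lama4, Lama5, Hspg2, Col1a2, Col5a1, Sparc, Vcan, Timp2, Itga1, Itga3, Itgb3 and Itgb5. Since the members were chosen with earlier results of these data known, the share describes them and is not a test of the set. Just at the threshold, Lama4 spanned 2.00-fold and Col4a2 1.98-fold. Fn1 spanned 1.23-fold. KDM7 KD1 and the empty vector line each gave the highest signal in 7 genes, and the parental line and the EGFP line gave the lowest in 10 and 6. The same shares over all genes were not computed, so these counts are not read as a result about the members.

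**Figure D4:**
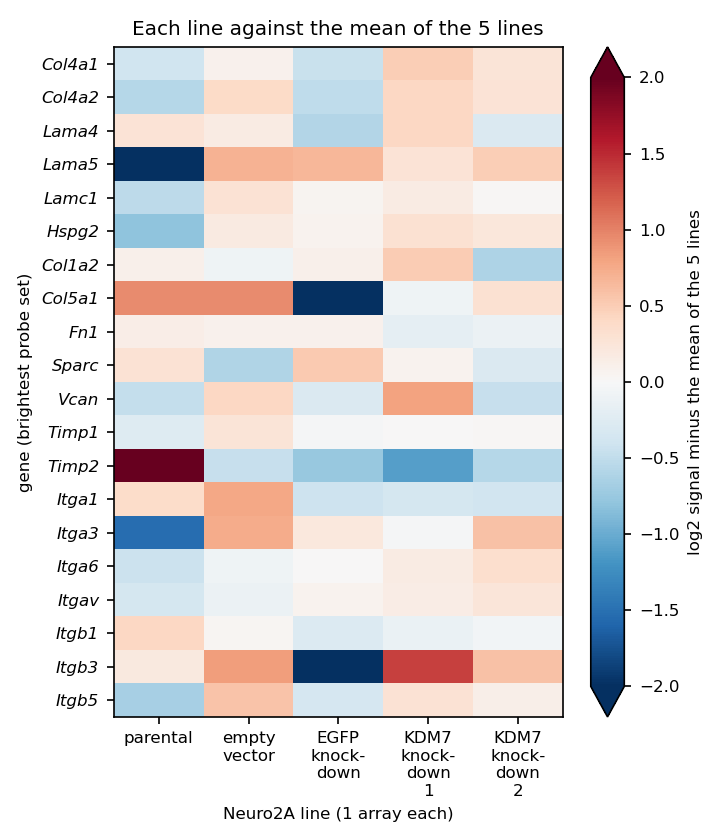
Log2 signal of each of the 20 kept genes in each of the 5 lines minus that gene's mean over the lines, with red above and blue below the mean and colours ending at 2. The parental column is darkest for Timp2, Lama5 and Itga3, and the EGFP column for Col5a1 and Itgb3.

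A wider list of 112 other matrix and adhesion genes was measured the same way. It gave 47 genes and 71 probe sets kept, and 0 of the 71 passed in limma in any of the 3 comparisons, with or without trend and robust. At an unadjusted p under 0.05 there were 2 (2.8%) for knockdown, 16 (22.5%) for the parental line and 0 between the knockdown lines, where 4.96%, 16.6% and 1.51% of all kept probe sets were. Both knockdown lines lay above all controls in 7 of these 47 genes (14.9%) and below in 5 (10.6%), near the 12.6% and 10.2% of all kept probe sets, and the medians were 0.08 for knockdown and 0.03 for the parental line. Of these, the 3 with the largest positive differences were Col7a1, the anchoring fibril collagen (39.7, 38.7 and 67.0 in the controls, 103 and 99.7 in the knockdown lines, 1.11), the protease Adamts1 (0.71) and the oxidase Loxl3 (0.68). The 3 largest negative ones were the collagen Col16a1 (-0.77), the integrin adaptor Tln2 (986, 838 and 1094 against 550 and 668, -0.67) and the collagen-modifying Plod1 (-0.37). None of these 6 passed, with an adjusted p of 0.916 in limma.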

How the data were processed

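RNA of 5 Neuro2A lines was labelled as biotin cRNA and hybridised to 1 Affymetrix mouse array each, per the labels' protocols. The authors deposited 1 signal intensity per probe set and array on a linear scale, made with MAS5 per the submitters' processing notes, with no version named. A trimmed mean of 500.0 in every array showed a common scaling, so no further normalization was applied. MAS5 signals of dim probe sets scatter widely on the log scale. The number of arrays limits the precision.

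Of 45101 probe sets, 64 controls were left out. Tests used log2 signals without an offset, and the 22519 probe sets with a mean log2 signal at or above the median were kept. Symbols came from the platform annotation, where 34945 probe sets had 1 symbol, 932 several and 9160 none listed.

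The tests used limma 3.58.1 (R 4.3.3; lmFit and eBayes, the latter with its trend and robust options), and p-values were adjusted by Benjamini-Hochberg over the 22519, at a threshold of 0.05. Comparisons were 2 knockdown against 3 control lines, the parental against the 4 vector-carrying lines, and KDM7 KD2 against KDM7 KD1 in a model with 3 groups, where a lone array is assumed to vary like the others. The median prior degrees of freedom were 5.42, 5.99 and 6.34. The test was tried on simulated data.

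The members, gene lists and markers were chosen with earlier results of these data known. All members may be named, and from the wider list the 3 largest differences each way among genes with both knockdown lines on one side of all controls. Means with SD are of signals, and differences with SE are of log2 values. Alternatives were other normalizations, filters, an offset, averaging a gene's probe sets, limma without trend and robust, a looser threshold and leaving out each array. Coordinates and start sequences are RefSeq's on GRCm38.p6.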

Additional observations from a re-analysis of the deposited data

Results flagged for a closer look

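Among the 4 vector-carrying lines, each of the 20 kept genes was checked for 1 line standing far from the other 3, and chance marks about 1 in 20 such groups. Gaps and ranges were taken on log2 signals, and on the linear signals that of Col4a2 is smaller. For Itga1 the empty vector line (525 against 230 to 240) had a gap to its nearest neighbour of 0.945 of the whole range. On its second probe set the empty vector line was also highest (166), but the others spread from 48.1 to 83.7, and the gap was not computed. For Timp1 the empty vector line was also the high one (487 against 403 to 414), with a gap of 0.858 of the range. For Col4a2 the EGFP line was the low one (2094 against 3591 to 3988), with a gap of 0.837 of the range.

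For Col1a2, KDM7 KD1 was above every control (61.3 against 40.3 to 46.0) and KDM7 KD2 below every control (27.9). KDM7 KD2 minus KDM7 KD1 was -1.14 on the log2 scale, which did not pass in limma (unadjusted p = 0.118).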

How the results depend on the processing

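No member probe set passed for knockdown against control under any alternative tried, leaving out each array in turn included, or for KDM7 KD2 against KDM7 KD1, where only the 3 control arrays could be left out. For the parental line 4 member probe sets passed in the main setting, where 342 of all 22519 kept probe sets did. With the filter at the 70th percentile 2 passed, where 138 of all 13511 did (Timp2 and Lama5 are no longer tested). Without trend and robust 2 passed, where 28 of all 22519 did. With the mean over the probe sets of a gene 0 passed, where 35 of all 10058 genes did (Timp2 and Lama5 are not tested either). When 1 array was left out 2 to 10 passed, where 67 to 705 of all 22519 did. The 10 were without the EGFP line, where the 705 passed. Genes with a 2-fold range were 12 of the 20 kept, and 34 of all 44 when unfiltered. They were 6 with the stricter filter, 6 with the mean over probe sets, and 6 to 11 when 1 array was left out, with 6 of them without the parental line. The number of genes counted changed with the setting, and the share over all genes was computed for the main setting only. These alternative counts of 2-fold ranges are therefore not read as a result about the members. The count with both knockdown lines above every control was 4, and 2 with the mean over probe sets, or 4 to 9 when 1 array was left out (8 without the empty vector line, 9 without KDM7 KD2). The count below was 1, and 3 with no filter, 0 with the mean over probe sets, or 1 to 6 when 1 array was left out (2 without the parental line, the empty vector line or KDM7 KD2, 6 without the EGFP line). These 2 counts and their alternatives were added after seeing the data. Their shares over all probe sets were computed for the main setting only, so the alternative counts are not read as a result about the members. Knockdown differences changed sign for Timp1 with median centring (-0.0901), Col5a1 with an offset of 32 (-0.0486), and Lama4 (-0.33) and Fn1 (0.0309) with the mean over probe sets. When 1 array was left out, signs changed within ranges of -0.30 to 1.13 for Lama5, -0.0846 to 0.32 for Lamc1, -0.11 to 0.15 for Timp1, -0.19 to 0.94 for Itga3, -0.32 to 0.0195 for Itgb1, -0.24 to 0.47 for Lama4, -0.83 to 0.70 for Col5a1, -0.52 to 0.0394 for Sparc, -0.34 to 0.92 for Vcan and -0.15 to 0.48 for Col1a2. Median centring moved all knockdown differences by -0.11 and all parental differences by 0.19. Of 325 single-gene values under alternatives, 298 kept their direction and side of the threshold, 16 changed sign and 11 no longer passed. They cover knockdown differences of 20 genes and parental differences of 5. The knockdown differences were far from the threshold in the main setting (adjusted p of 0.916 or more in limma), so the side they kept says little. Genes not tested under an alternative are not counted. Where no construction of the alternative is named, the cause was not tested. No paired analysis was made, because the 5 arrays are 5 different lines, 3 control and 2 knockdown, and the labels name no pairs. Signals near or below the filter level limit what can be said of the 24 genes not kept.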
